A study of Mus musculus with 81 samples.

Results

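RMER19 elements were the 12717 loci, of 970384 annotated long terminal repeat (LTR) loci in the series, whose species name begins with RMER19. They fell into 4 subtypes among 680 LTR species, with 2092 RMER19A, 5608 RMER19B, 2294 RMER19B2 and 2723 RMER19C loci. No measured value entered this choice. Pregnant OG2 mice, which carry EGFP under the Pou5f1 promoter and distal enhancer, drank water with 50 nM tributyltin (TBT) or the vehicle DMSO as the F0 generation, and testes of F1 and F3 fetuses were taken at E18.5. EGFP-positive germline cells were sorted into fractions P4 and P5 by side scatter, EGFP-negative somatic cells formed P6, and every group therefore carried the transgene. RNA was read in 62 libraries. For F1 these were 5 DMSO and 7 TBT libraries of P4, 4 and 7 of P5 and 5 and 7 of P6. For F3 they were 4 DMSO and 5 TBT libraries of each fraction. Methylated DNA of P6, captured with a methyl-CpG binding domain protein (MBD), was read in 3 DMSO and 4 TBT libraries of F1 and in 5 and 7 of F3.

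RMER19 elements are LTRs of endogenous retroviruses of a rodent class II (ERVK) group. An LTR carries the promoter and the polyadenylation signal of a provirus, and most mouse LTRs persist as solitary copies left after recombination between both ends of a provirus. Such elements are held silent by DNA methylation, by repressive histone marks and, in the male germline, by the piRNA pathway. Late fetal male germ cells are arrested in the cell cycle and are regaining DNA methylation after its genome-wide loss. RNA over an LTR can begin in the LTR itself, or it can be part of an unspliced or spliced gene transcript that runs through it, and the place of each locus relative to genes is given for this reason.

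RMER19 loci were longer than LTRs in general, with a median of 528 bases against 261 over all LTR loci. The median was 600 bases for RMER19A, 574 for RMER19B, 568 for RMER19B2 and 475 for RMER19C. A median RMER19 locus held 3 CpG sites against 1 over all LTR loci, with medians of 3, 4, 3 and 2 in RMER19A, RMER19B, RMER19B2 and RMER19C. No CpG was found in 17.1% of RMER19 loci and in 32.8% of all LTR loci, while GC content was similar, with medians of 43.1% and 43.97%. In GENCODE on GRCm38, 9373 RMER19 loci (73.7%) lay outside genes, 2976 (23.4%) in introns and 368 (2.89%) touched an exon. Of all LTR loci 64.5% lay outside genes.

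One locus of each subtype is shown in sequence because it had the highest mean RNA level among loci of its subtype that lay outside genes, were at least 300 bases long and were not on 1 chromosome left out of this choice, averaged over the tables of both generations and both cell classes. The RMER19C locus at chr4:86733930-86734204, with 275 bases, had a higher mean and was too short for this choice. The first 300 bases are printed on the plus strand of GRCm38, with capitals marking each CpG, the site at which DNA methylation acts.
RMER19A chr3:50611455-50611754: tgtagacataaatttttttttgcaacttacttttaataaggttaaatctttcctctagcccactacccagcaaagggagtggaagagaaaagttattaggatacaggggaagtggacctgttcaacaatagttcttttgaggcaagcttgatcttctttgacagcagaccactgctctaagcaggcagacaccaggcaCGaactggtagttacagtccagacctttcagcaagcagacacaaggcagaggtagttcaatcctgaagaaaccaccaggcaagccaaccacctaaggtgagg
RMER19B chr4:153086505-153086804: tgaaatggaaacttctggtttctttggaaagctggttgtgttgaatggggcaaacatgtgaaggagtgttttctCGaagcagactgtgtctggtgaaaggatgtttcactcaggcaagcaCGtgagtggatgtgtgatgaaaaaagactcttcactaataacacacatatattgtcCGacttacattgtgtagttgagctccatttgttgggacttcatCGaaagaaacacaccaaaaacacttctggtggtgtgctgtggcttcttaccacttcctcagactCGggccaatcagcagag
RMER19B2 chr10:120319593-120319892: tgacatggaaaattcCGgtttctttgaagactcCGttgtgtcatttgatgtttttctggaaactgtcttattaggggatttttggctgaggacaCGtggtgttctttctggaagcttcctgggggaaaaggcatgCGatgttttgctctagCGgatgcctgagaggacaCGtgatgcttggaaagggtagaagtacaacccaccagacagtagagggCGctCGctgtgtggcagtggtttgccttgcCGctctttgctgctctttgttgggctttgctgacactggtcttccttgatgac
RMER19C chr8:111752264-111752563: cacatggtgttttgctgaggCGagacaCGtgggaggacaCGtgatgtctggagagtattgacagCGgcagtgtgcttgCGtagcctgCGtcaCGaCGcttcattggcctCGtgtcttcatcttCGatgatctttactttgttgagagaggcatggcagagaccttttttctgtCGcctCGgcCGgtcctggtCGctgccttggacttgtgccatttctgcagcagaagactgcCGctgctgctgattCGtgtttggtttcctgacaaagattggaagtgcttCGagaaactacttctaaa
The stretches held 1, 5, 9 and 17 CpG in the order printed. The whole loci were chr3:50611455-50612138 (684 bases, 6 CpG), chr4:153086505-153087353 (849 bases, 12 CpG), chr10:120319593-120320298 (706 bases, 18 CpG) and chr8:111752264-111752674 (411 bases, 18 CpG). The nearest GENCODE genes were Gm6209 at 4232 bases, Gm13173 at 58237 bases, Gm38141 at 6781 bases and Bcar1 at 8455 bases. The RMER19C locus overlapped an exon of the RefSeq gene Gm39252, which GENCODE did not place there.

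RNA values are in CPM, the reads at a locus relative to the library size as the authors scaled it, and were normalised separately for germline and somatic cells and for each generation. Values of different tables are therefore set side by side without a test. Reads at LTR loci ranged from 2017404 to 8161548 in 58 of the 62 RNA libraries. P4 TBT libraries 5 and 9, P5 DMSO library 2 and P5 TBT library 5 of F3 held under 1700000 reads, down to 246520 in the last, of which 4468 lay in RMER19. Germ cell markers, read through LTRs inside 9 of these genes, summed to between 12608 and 22206 CPM in F1 P4, between 9211 and 17315 CPM in F1 P5 and between 24.2 and 48 CPM in F1 P6. In F3 they ranged from 142 CPM in a P5 library to 18440 CPM in P4, and 2 of the F3 P6 DMSO libraries, 3 and 4, held 242 and 208 CPM against at most 22.8 CPM in F3 P6 TBT. Summed Sertoli cell markers were 678 to 954 CPM in F1 P6, 7.42 to 49.4 CPM in F1 P4 and 18.9 to 90.6 CPM in F1 P5. The part of these differences in RMER19 values was not tested. In bulk libraries, fewer cells of a type and less RNA per cell cannot be told apart. The study describes its MBD samples as generated independently. For the RNA libraries the sources used here do not say whether they came from separate fetuses or litters. The numbers of F1 germline libraries begin with 43, 44 or 48 in DMSO and with 45 or 47 in TBT, and what the first part stands for is not stated. Libraries that share it may not be independent, and p-values measure the spread between these libraries only.

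RMER19 RNA was present in all populations and was lower in somatic than in most germline libraries. In F1 P4 the 5 DMSO libraries had a lowest, median and highest summed level of 9324, 9596 and 10188 CPM, and the 7 TBT libraries of 9553, 9980 and 10573 CPM. In F1 P5 these values were 9229, 9537 and 9794 CPM in DMSO and 9034, 10108 and 11091 CPM in TBT. F1 P6 gave 7589, 7909 and 8043 CPM in DMSO and 7673, 8147 and 9331 CPM in TBT. DMSO and TBT libraries overlapped in each of these populations. In F3 germline cells the spread was wider, from 7495 to 14564 CPM in P4 and from 4274 to 17037 CPM in P5, and in F3 P6 it was narrow, from 7852 to 8113 CPM. As a share of all LTR signal, RMER19 took 0.92% to 0.968% in F1 P4, 0.991% to 1.10% in F1 P5 and 0.760% to 0.944% in F1 P6. The F1 P5 range lay above the F1 P4 range without overlap.

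RMER19B supplied more signal than the other subtypes together in every group mean. In F1 P4 DMSO it stood at 5397 ± 190 CPM (SD, n = 5), beside 1524 ± 58.3 for RMER19A, 1052 ± 58.3 for RMER19B2 and 1671 ± 86.6 for RMER19C. In F1 P5 DMSO the levels were 5303 ± 116, 1535 ± 38.9, 1091 ± 66.9 and 1594 ± 63.3 CPM in the same sequence (SD, n = 4). F1 P6 DMSO gave 4505 ± 163 CPM for RMER19B, 1259 ± 9.89 for RMER19A, 863 ± 33.6 for RMER19B2 and 1191 ± 38.5 for RMER19C (SD, n = 5), and here RMER19A stood above RMER19C, the reverse of their order in F1 P4 and P5. The subtypes differ in the number and length of their loci, and these sums are not levels per locus.

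**Figure D1:**
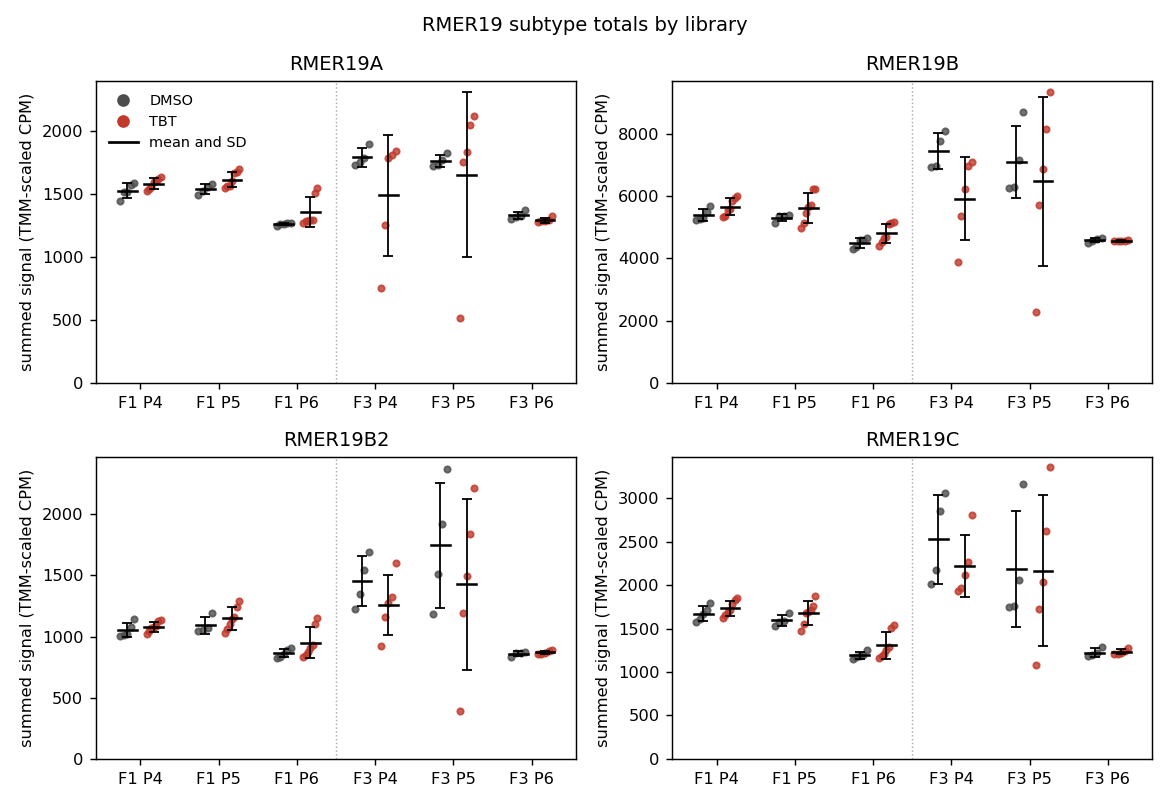
Summed RNA level of each RMER19 subtype in every library, in CPM, in 4 panels for the subtypes, with libraries grouped on the x axis by generation, fraction and exposure. Points are libraries and bars show the mean and SD of a group. DMSO and TBT points overlap in each population except for RMER19A in F1 P6, where the lowest TBT point, at 1268 CPM, lies above the highest DMSO point, at 1266 CPM. The F3 germline groups show the widest spread.

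The signal outside genes separated the populations far more than the sums did. In F1 P4, loci outside genes supplied 10.3%, 11.4% and 12.6% of the RMER19 signal in the lowest, median and highest DMSO library, and 9.36%, 11.2% and 13.2% in TBT. In F1 P5 the shares were 15.1%, 15.9% and 18.6% in DMSO and 15.1%, 19.4% and 22.5% in TBT, all above those of P4. In F1 P6 they were 2.07%, 2.14% and 3.18% in DMSO and 1.71%, 3.76% and 18.2% in TBT. The TBT libraries 7 and 8 of F1 P6 stood apart at 17.2% and 18.2%, where the other 5 TBT libraries were at or under 4.25%. F3 P4 gave 15.5%, 16.8%, 22.6% and 23.9% in the 4 DMSO libraries and 10.7%, 14.7%, 16.1%, 31.6% and 38.2% in the 5 TBT libraries. F3 P5 gave 19.3%, 26.7%, 41.8% and 50.8% in DMSO and 18.2%, 20.04%, 29.9%, 30.8% and 55.8% in TBT. The 2 F3 germline fractions overlapped. All 9 libraries of F3 P6 lay between 1.81% and 2.75%.

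**Figure D2:**
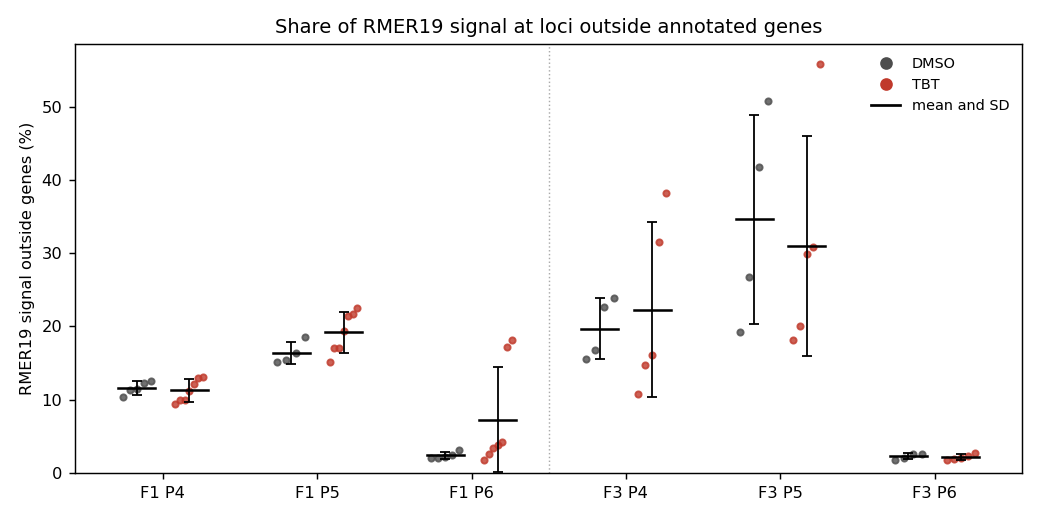
Percent of the RMER19 signal of each library that came from loci outside GENCODE genes, with libraries grouped on the x axis by generation, fraction and exposure. Points are libraries and bars show the mean and SD of a group. Germline libraries sit above nearly all somatic libraries, and TBT libraries 7 and 8 of F1 P6 sit at 17.2% and 18.2%.

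Few RMER19 loci outside genes carried enough reads to be tested, and more did so in germline than in somatic cells. A locus was tested when its mean reached 5 units, 1 unit being what 1 read is worth in a typical library. Of the 9373 loci outside genes, 172 (1.84%) passed in F1 P4, 391 (4.17%) in F1 P5 and 15 (0.160%) in F1 P6. In F3 the numbers were 345 (3.68%) in P4, 525 (5.60%) in P5 and 25 (0.267%) in P6. Over all LTR loci outside genes, the share that passed was 0.437%, 1.60% and 0.127% in P4, P5 and P6 of F1, and 1.31%, 2.95% and 0.202% in those of F3. Among other RMER species, RMER16 and RMER17 together reached 0.632% and RMER10 and RMER15 reached 0.581% in F1 P4, and these shares were 3.26% and 1.44% in F1 P5. In F3 they were 2.28% and 1.55% in P4 and 6.63% and 2.48% in P5, where RMER16 and RMER17 stood above RMER19. RMER19 loci are longer than the median LTR, and length was not matched in these shares.

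RMER19 loci outside genes that passed the filter held more CpG than those that did not. In F1 P4 their median was 7 CpG against 3, and 35.5% of them held at least 10 CpG against 8.84% of the rest. In F1 P5 the medians were also 7 and 3, and the shares with at least 10 CpG were 32.7% and 8.31%. In F3 the shares were 27.8% and 8.62% in P4 and 28.0% and 8.22% in P5. Other LTR loci outside genes showed the same order in F1 P4, with 22.2% and 6.45%. In P6 their shares were 39.1% and 6.47% in F1 and 32.9% and 6.46% in F3. In P6 the RMER19 medians were 6 and 3 CpG in both generations. Few RMER19 loci passed there, and the shares lay closer, at 13.3% and 9.32% in F1 (15 loci passed) and 12% and 9.32% in F3 (25 loci). In F1 P4 the RMER19 loci that passed were also longer, with a median of 604 against 513 bases, and length was not matched. Their median CpG number per 100 bases was 1.18 against 0.626.

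The 4 loci printed above illustrate signal outside GENCODE genes, though the RMER19C locus lies in the RefSeq gene Gm39252. The RMER19B locus on chromosome 4 had a mean of 64.5 CPM over F1 germline libraries and of 0.0467 CPM over F1 somatic libraries. In F1 P4 DMSO it held 55.8, 71.2, 78.8, 87.8 and 88.9 CPM, and in F1 P4 TBT 59.1, 79.3 and 83.2 CPM in the lowest, median and highest library. In F1 P5 DMSO it held 35.6, 43.6, 54.8 and 62.9 CPM, and in F1 P5 TBT 39.7, 46.5 and 68.9 CPM. P5 values thus lay lower than P4 values on the whole, with an overlap. All 5 DMSO libraries of F1 P6 were at 0, as were 5 of 7 TBT libraries, the other 2 holding 0.263 and 0.298 CPM. In F3 P4 it held 71.5, 71.8, 83.1 and 140 CPM in DMSO and 0, 0, 62.4, 97.3 and 127 CPM in TBT. In F3 P5 it held 14.6, 14.8, 47.6 and 105 CPM in DMSO and 0, 43.7, 46.6, 50.7 and 58.3 CPM in TBT, and in F3 P6 1 DMSO library held 0.985 CPM and the other 8 libraries 0.

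The RMER19B2 locus on chromosome 10 was at 0 in all 21 P6 libraries. In F1 P4 DMSO it held 19, 31.0, 34.7, 35.1 and 41.2 CPM, and in F1 P5 DMSO 23.1, 23.9, 24.5 and 29.4 CPM. The lowest, median and highest TBT libraries held 26.5, 40.2 and 47.1 CPM in F1 P4 and 15.0, 31.3 and 47.2 CPM in F1 P5. DMSO and TBT values overlapped in both fractions. In F3 it held 66.2, 81.8, 129 and 181 CPM in P4 DMSO and 43.8, 53.7, 63.1, 172 and 262 CPM in P4 TBT. In F3 P5 it held 20.2, 28.4, 70.3 and 191 CPM in DMSO and 19.6, 40.8, 60.9, 181 and 184 CPM in TBT.

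The RMER19C locus on chromosome 8, which holds 18 CpG in 411 bases, was low but present in somatic cells. In F1 P4 DMSO it held 8.09, 13.6, 16.8, 18.53 and 20.1 CPM, in F1 P5 DMSO 16.8, 19.5, 19.9 and 27.9 CPM, and in F1 P6 DMSO 0, 0, 0.780, 0.867 and 0.901 CPM. The TBT libraries held 8.55, 13.3 and 23 CPM in F1 P4, 12.9, 25 and 34.5 CPM in F1 P5 and 0.640, 1.31 and 5.43 CPM in F1 P6 as lowest, median and highest. The RMER19A locus on chromosome 3 had a mean of 4.13 CPM over F1 germline libraries and of 26.0 CPM over F3 germline libraries. It held 0.985, 1.55, 4.39, 7.78 and 11.5 CPM in F1 P4 DMSO and 0, 2.69, 3.73 and 10.5 CPM in F1 P5 DMSO, and was at 0 in all 9 F3 P6 libraries. In F3 it held 1.7, 18.7, 20.1 and 49.4 CPM in P4 DMSO, 5.64, 12.3, 14.1, 27.8 and 39.4 CPM in P4 TBT, 1.39, 8.58, 22.7 and 79.7 CPM in P5 DMSO and 4.66, 9.67, 13.7, 16 and 122 CPM in P5 TBT, so that fractions and exposures overlapped. Of these values, 27.8, 39.4, 79.7 and 122 CPM came from the libraries under 1700000 reads. The F3 germline mean of this locus therefore rests in large part on those libraries.

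**Figure D3:**
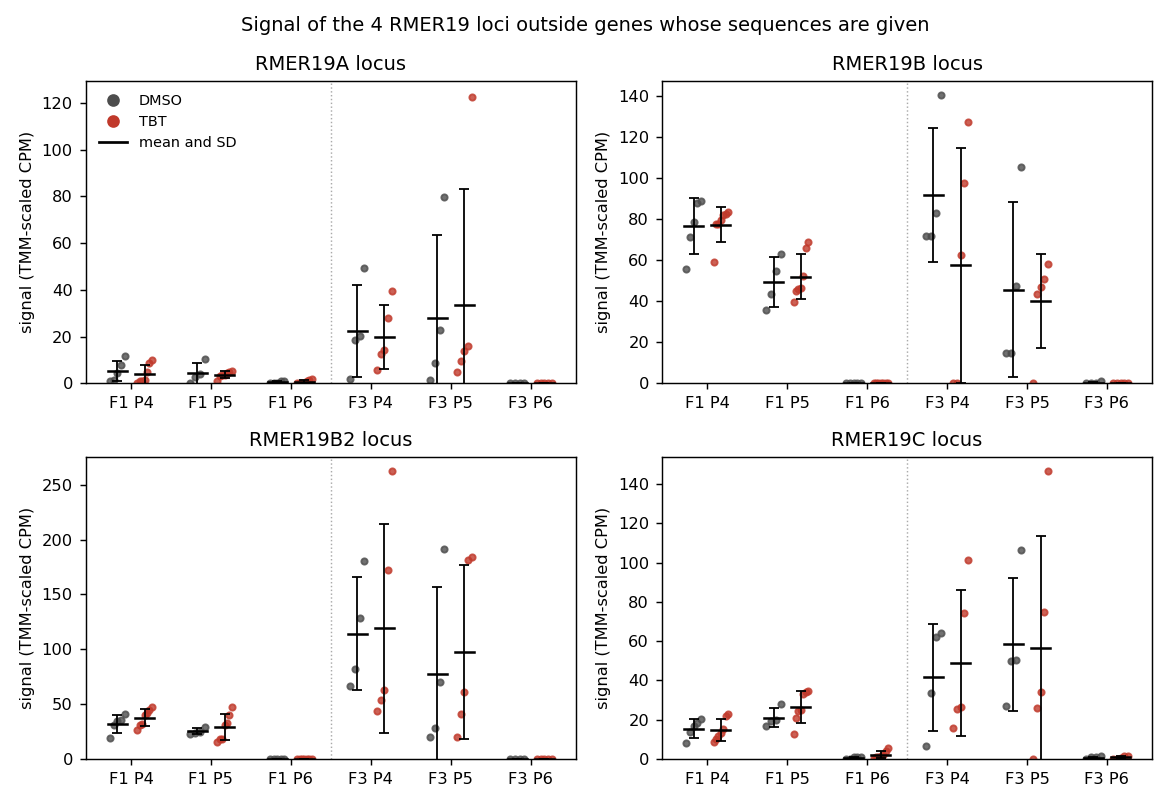
RNA level in CPM of the 4 loci whose sequence is printed, by generation, fraction and exposure. Points are libraries and bars show the mean and SD of a group, cut at 0 by the axis. The RMER19B2 locus is at 0 in all 21 P6 libraries, and the RMER19C locus reaches 5.43 CPM in F1 P6.

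Per kilobase of locus, among loci of at least 200 bases, RMER19 signal was highest inside genes in most tables. In F1 germline cells the 3 loci at the top were an RMER19A locus in an intron of Gars at chr6:55051488-55052136, with a mean of 131 CPM or 202 CPM per kilobase, an RMER19C locus in an intron of Faf1 at chr4:109954335-109954817, with 184 CPM per kilobase, and an RMER19B locus in Faf1 at chr4:109706921-109707419, with 165 CPM per kilobase. Gars encodes glycyl-tRNA synthetase and Faf1 a protein that binds ubiquitin. Both somatic tables had the same 3 loci at the top, 2 RMER19B loci in an intron of Ndfip1, with 596 and 416 CPM per kilobase in F1 and 452 and 317 in F3, and an RMER19B locus in an intron of Fkbp1a, with 203 and 169. In F3 germline cells the locus at the top was RMER19C at chr4:86733930-86734204, with 363 CPM per kilobase, which lay outside GENCODE genes but within the RefSeq gene Gm42312.

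Many loci inside genes did not carry a measurement of their own. Among the tested RMER19 loci, 238 of 1151 (20.7%) in F1 germline cells had exactly the values of another locus in every library, as did 293 of 785 (37.3%) in F1 somatic cells, 255 of 1342 (19%) in F3 germline cells and 331 of 936 (35.4%) in F3 somatic cells. The loci that shared a profile lay in the same gene in 3 of the 4 tables, and in F3 germline cells this held for 241 of 255. The RMER19B locus in Faf1 had the values of a set of 9 loci. No locus outside genes was among them except 11 in F3 germline cells. Counts of loci inside genes therefore include repeated measurements of a gene.

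The comparison of P5 with P4 asked how the side scatter fractions of germline cells differed in RMER19 RNA, over both exposures. In F1, RMER19 loci changed in both directions, and outside genes the loci that rose outnumbered those that fell. Of 1151 tested loci, 222 (19.3%) were higher and 177 (15.4%) lower in P5 at a false discovery rate (FDR, limma with Benjamini-Hochberg adjustment) of 0.05, beside 17% and 20.3% of all 101401 LTR loci tested. Outside genes 57 loci rose and 12 fell of 225, in introns 144 rose and 155 fell of 825, and at exons 21 rose and 10 fell of 101. In the same order of place, 43.7%, 15.5% and 19.7% of other LTR loci rose and 3.04%, 21.3% and 18.1% fell, against 25.3%, 17.5% and 20.8% of RMER19 loci that rose and 5.33%, 18.8% and 9.90% that fell. The loci that rose outside genes were 36 of 100 tested RMER19B loci, 8 of 35 RMER19A, 7 of 47 RMER19C and 6 of 43 RMER19B2. The median log2 fold change of P5 over P4 was 0.34 for RMER19 loci outside genes, of which 63.1% were higher, and 0.81 for other LTR loci outside genes, of which 75.6% were higher. In introns it was -0.06 for RMER19 loci and -0.14 for other LTR loci. The median over all LTR loci was -0.11 and moved to 0.03 when every library was given the same total and to 0.02 under median-ratio scaling. The calls for RMER19 then became 269 higher and 106 lower, or 264 and 106, so that 71.7% or 71.4% of them were higher instead of 55.6%. With the same total per library 23.1% of tested RMER19 loci were called higher and 9.08% lower, beside 20.1% and 10.5% of all LTR loci, and under median-ratio scaling 22.8% and 9.14%, beside 19.9% and 11.5%.

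Summed per subtype, the signal outside genes rose in F1 P5 for all 4 subtypes. The log2 fold change was 0.81 (SE 0.11) for RMER19B, 0.48 (SE 0.0963) for RMER19A, 0.49 (SE 0.104) for RMER19B2 and 0.42 (SE 0.121) for RMER19C, with FDR between 1.22e-07 and 0.00229 (limma, Benjamini-Hochberg). Of 663 LTR species, 87.6% were called in the same test. The rise held with each library left out in turn and under both other scalings. Inside genes the RMER19B and RMER19C sums fell by 0.13 and 0.17 on the log2 scale, RMER19B2 by 0.07, and RMER19A gave -0.04 and was not called, where 70.3% of 674 species were called. These calls depended on the scaling, since with the same total per library RMER19A, RMER19B and RMER19B2 came to 0.11, 0.02 and 0.08 and RMER19C to -0.02. The RMER19B2 call inside genes was also lost in 7 of the 23 fits that left out 1 library. Over all loci of a subtype no difference was called, with log2 fold changes of 0.02, -0.02, 0.07 and -0.06 for RMER19A, RMER19B, RMER19B2 and RMER19C, while 62.8% of 677 species were called. With the same total per library these became 0.17, 0.13, 0.22 and 0.095 and all 4 were called, and under median-ratio scaling 0.16, 0.12, 0.20 and 0.078, of which the first 3 were called. Beside these comparisons, summed germ cell markers were lower and summed Sertoli cell markers higher in P5 than in P4 in each of the 11 F1 libraries that share a number, and their part in the RMER19 values was not tested. Over the same 11 numbers, endothelial markers were higher in P5 in 10, macrophage markers in 8 and Leydig cell markers in 7, and peritubular and interstitial markers were lower in 8.

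The 3 loci with the largest rise in F1 P5 were RMER19B loci outside genes. The locus at chr1:94202388-94203251 (864 bases, 14 CpG, 1166 bases from Gm7891) had a log2 fold change of 3.98 (SE 0.368, FDR 2.34e-10, limma with Benjamini-Hochberg). It was at 0 in 4 of 5 P4 DMSO libraries and at 0.229 CPM in the other, with a highest P4 TBT value of 0.995 CPM. P5 DMSO libraries held 1.43, 2.69, 4.90 and 7.23 CPM, and P5 TBT 2.54, 5.84 and 8.26 CPM as lowest, median and highest. P4 and P5 did not overlap at this locus.

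The RMER19B locus at chr11:93758619-93759139 (521 bases, 6 CpG, 63068 bases from Gm11506) had a higher level. P4 DMSO libraries held 0, 0.462, 1.14, 2.32 and 6.65 CPM and P4 TBT 0.427, 0.999 and 6.25 CPM, against 15.2, 16.0, 17 and 39.1 CPM in P5 DMSO and 10.8, 25.8 and 40.4 CPM in P5 TBT. The fractions did not overlap, and the log2 fold change was 3.90 (SE 0.412, FDR 4.7e-09, limma with Benjamini-Hochberg). At the RMER19B locus chr1:152393337-152394235 (899 bases, 5595 bases from Colgalt2) the fractions overlapped, with 0 to 10.2 CPM in P4 and 4.76 to 48 CPM in P5, and a log2 fold change of 3.67 (SE 0.538, FDR 2.37e-06). Over all tested loci, 18 RMER19 loci were higher in every P5 library than in any P4 library and 6 were lower in every one, beside 2.11% and 0.753% of all LTR loci tested.

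The 3 loci with the largest fall in F1 P5 fell by 1.67, 1.61 and 1.39 on the log2 scale and also lay outside GENCODE genes. The RMER19C locus at chr8:101190759-101191160 (402 bases) held 1.97, 2.08, 7.20, 8.92 and 13.4 CPM in P4 DMSO and 0, 1.17, 1.91 and 2.69 CPM in P5 DMSO, with an FDR of 0.000211 (limma, Benjamini-Hochberg). P4 TBT held 3.58, 5.70 and 8.49 CPM and P5 TBT 1.19, 2.30 and 4.34 CPM, so that the fractions overlapped. The RMER19B locus at chr13:103778452-103779168, on an exon of the RefSeq gene Gm52054, had an FDR of 0.00968, and the RMER19B locus at chr2:158239953-158241100, 2404 bases from Mir7685, one of 0.0432. The last call was kept in only 8 of the 23 fits that left out 1 library.

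**Figure D4:**
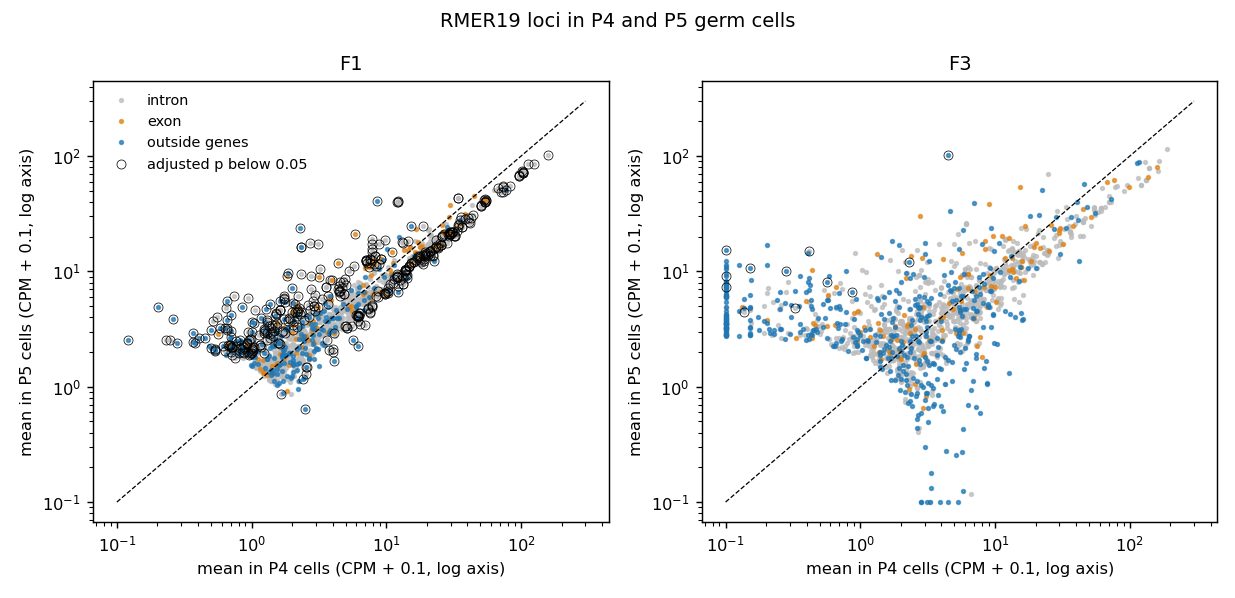
Mean RNA level of each tested RMER19 locus in P4 (x axis) and P5 (y axis), as CPM plus 0.1 on log axes, in F1 (left) and F3 (right). Loci in introns are grey, at exons orange and outside genes blue, and circled loci passed the FDR of 0.05. Blue circled points lie mostly above the diagonal in F1, and 12 points are circled in F3.

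In F3 fewer differences passed the test, all of them higher in P5. Of 1342 tested RMER19 loci, 12 rose (0.894%, beside 0.985% of all 98076 LTR loci tested) and none fell (beside 0.0112%), with 166 loci (12.4%) at an unadjusted p under 0.05, beside 10.5% of all LTR loci tested. The edgeR quasi-likelihood test called 133 higher and 3 lower, beside 6.56% of all LTR loci tested. Of the 12 loci, 9 lay outside genes, 2.03% of those tested there beside 4.49% of other LTR loci, and 3 in introns, 0.385% beside 0.392%. Of the same 12, 6 were RMER19B loci among 711 tested. Summed germ cell markers were lower in P5 in 8 of the 9 numbers that F3 libraries share, ranging from 1280 to 18440 CPM in P4 and from 142 to 13355 CPM in P5. Endothelial markers were higher in P5 in all 9, from 0 to 114 CPM in P4 and from 2.87 to 165 CPM in P5. Sertoli cell and macrophage markers were each higher in 6 and lower in 2, Leydig cell markers higher in 4 and lower in 4, and peritubular and interstitial markers lower in 7. The part of these shifts in the RMER19 values was not tested. The median log2 fold change was 0.62 for RMER19 loci outside genes and 1.02 for other LTR loci outside genes. Without the 4 libraries under 1700000 reads 54 loci rose (3.92%) and 5 fell (0.363%), beside 3.32% and 0.716% of all LTR loci tested, and with a single library left out the count of calls ranged from 4 to 45, the latter without P5 TBT library 5. The count was between 4 and 7 without any 1 of the 4 P4 DMSO libraries, P4 TBT library 5, 6 or 7, or P5 TBT library 6, 7, 8 or 9.

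Of the subtype sums outside genes, RMER19B was called in F3, with a log2 fold change of 0.87 (SE 0.343, FDR 0.0342, limma with Benjamini-Hochberg), beside 54.5% of 661 species. RMER19A gave 0.55 (FDR 0.145), RMER19B2 0.47 and RMER19C 0.22 in the same test and were not called. Under median-ratio scaling these became 1.14, 1.06 and 0.81 and were called. The RMER19B call was lost in 8 of the 18 fits that left out 1 library, where the value stayed between 0.76 and 1.01. These were the fits without P4 DMSO library 3 or 4, P4 TBT library 6 or 7, P5 DMSO library 1 or 2, or P5 TBT library 8 or 9. Over all loci of a subtype none was called, beside 2.66% of 677 species, and none was called for the sums inside genes, beside 0.296% of 675. Other scalings of the sums over all loci gave calls. These included RMER19A, at 0.35 with the same total per library, and RMER19B2, at 0.70 under median-ratio scaling. No tested RMER19 locus was higher or lower in every P5 library than in all P4 libraries, beside 0.111% and 0.0051% of all LTR loci tested. F1 and F3 were normalised separately, and their difference was not tested.

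The largest rise in F3 was at the RMER19B locus chr7:29879050-29879680 (631 bases, 7 CpG, 1758 bases from Zfp420). All 9 P4 libraries were at 0. P5 DMSO libraries held 0, 4.70, 14.8 and 46.3 CPM and P5 TBT libraries 2.40, 4.66, 7.06, 17.9 and 40.2 CPM, with an FDR of 0.00299 (limma, Benjamini-Hochberg). One P5 library, at 0, overlapped P4.

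The RMER19B2 locus at chr14:11096555-11097094 in an intron of Fhit was at 0 in 7 of 9 P4 libraries and at 0.995 and 1.86 CPM in the other 2, both TBT. P5 DMSO libraries held 4.39, 6.36, 34.5 and 57.9 CPM and P5 TBT libraries 0, 3.69, 4.17, 6.74 and 15.6 CPM (FDR 0.00769). The RMER19B locus at chr11:93758619-93759139, named above for F1, held 0, 4.89, 5.65 and 13.3 CPM in P4 DMSO, 0, 0, 4.64, 4.69 and 6.29 CPM in P4 TBT, 37.4, 54.6, 135 and 359 CPM in P5 DMSO and 0, 26.8, 57, 82.1 and 174 CPM in P5 TBT. Its log2 fold change in F3 was 4.38 (SE 1.08, FDR 0.0341, limma with Benjamini-Hochberg), a call kept in 7 of the 18 fits that left out 1 library.

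The comparison of TBT with DMSO asked whether exposure of the F0 mothers was followed by other RMER19 levels in each population. The F1 fetuses were themselves exposed in utero, and the F3 fetuses were not. Of the 6 comparisons, 5 gave no RMER19 locus past the FDR and 1 gave a single locus. No RMER19 subtype sum was called either. In F1 P5 the locus was 1 of 1474 tested, beside 0.0106% of all 122303 LTR loci called higher. In F1 P6 and F3 P6 the background was 0.00341% and 0.0200% higher and, in F3 P6, 0.0143% lower, and in the other populations no LTR locus was called. The other tested RMER19 loci numbered 1008 in F1 P4 and 785 in F1 P6, and for F3 1144 in P4, 1486 in P5 and 936 in P6. At an unadjusted p under 0.05 stood 69 in P4, 154 in P5 and 25 in P6 of F1, and 39, 36 and 74 in the same fractions of F3. These were 6.85%, 10.4%, 3.18%, 3.41%, 2.42% and 7.91% of the tested RMER19 loci, beside 7.09%, 6.89%, 3.68%, 1.65%, 1.01% and 7.96% of all LTR loci tested. The edgeR quasi-likelihood test called no RMER19 locus in any of the 6, and the edgeR likelihood ratio test called 1, 11, 0, 1, 95 and 2 in this order, beside 0.0982%, 0.32%, 0.05%, 0.00463%, 3.13% and 0.32% of all LTR loci tested. Of the 95 in F3 P5, 24 were higher and 71 lower.

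The single locus was RMER19B2 at chr8:59418031-59418669 (639 bases, 2 CpG, outside genes and 637 bases from Gm34370). In F1 P5 it was at 0 in 3 DMSO libraries and at 0.336 CPM in the other, and held 0.869, 2.71 and 5.42 CPM in the lowest, median and highest TBT library, so that the groups did not overlap. The locus passed the filter, a mean of 0.904 CPM, through its TBT values, since no DMSO library reached that level. The log2 fold change, on values with 1 unit added, was 3.71 (SE 0.548, FDR 0.02, limma with Benjamini-Hochberg), and the FDR was 0.133 in the edgeR quasi-likelihood test. No RMER19 locus was called with a pseudocount of 0.25 unit or with a filter at a mean of 20 units. The call was kept in 6 of the 11 fits that left out 1 library, with FDR from 0.00683 to 0.127, and was lost without TBT library 45-4, 45-5, 47-1, 47-3 or 47-4. Without DMSO library 48-4, 43-4 or 43-5 or TBT library 47-5 the count of called RMER19 loci was 4, 3, 2 and 2. In F1 P4 the higher values were in DMSO, with 0, 0, 0.534, 1.14 and 2.31 CPM in DMSO and 0 in 6 of 7 TBT libraries and 0.597 CPM in the other. In F3 P5 the groups overlapped, with 0, 0, 1.62 and 22.4 CPM in DMSO and 0, 3.69, 8.10, 15.6 and 20.2 CPM in TBT, and all F3 P4 libraries were at 0. An RLTR16 and an RMER13B element lay within 1000 bases of it.

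In F1 P5, RMER19 loci outside genes were mostly higher in TBT without passing the test. Their median log2 fold change was 0.50 over 391 tested loci, of which 70.1% were higher, beside 0.37 and 66.7% for other LTR loci outside genes. Loci passed the filter on their mean over 7 TBT and 4 DMSO libraries. A locus high in TBT alone therefore passed more easily than a locus high in DMSO alone. The part of the filter in these directions was not tested. The sums outside genes gave 0.38 (SE 0.193) for RMER19A, 0.34 for RMER19B, 0.22 for RMER19B2 and 0.21 for RMER19C, with FDR from 0.520 to 0.628 (limma, Benjamini-Hochberg). Reads were seen at 1993 to 2780 RMER19 loci per F1 P5 DMSO library and at 2767 to 3821 per TBT library. The part of this difference in the sums was not tested. In the other comparisons the medians over all tested RMER19 loci and over all LTR loci were 0.03 and 0.04 in F1 P4, -0.03 and -0.04 in F1 P6, -0.58 and -0.69 in F3 P4, 0.06 and 0.15 in F3 P5 and 0.01 and 0.02 in F3 P6. Without the libraries under 1700000 reads the F3 P4 medians became 0.30 and 0.37, and no locus was called in F3 P4 or F3 P5.

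No subtype sum was called between TBT and DMSO in any population. The RMER19A sums in F1 P6 did not overlap, with 1242 to 1266 CPM in DMSO and 1268 to 1549 CPM in TBT, and all other subtype sums overlapped. Summed macrophage markers did not overlap between these groups either, at 30.4 to 38.2 CPM in DMSO and 38.8 to 87.1 CPM in TBT, and germ cell markers stood at 24.2 to 32.3 CPM and 28.9 to 48 CPM. The part of these differences in the RMER19A sums was not tested. In F1 P4 the log2 fold changes lay between 0.04 and 0.07 (FDR 0.448 to 0.633), in F1 P5 between 0.07 and 0.08 (FDR 0.959 to 0.998) and in F1 P6 between 0.09 and 0.13 (FDR 0.735 to 0.744, limma with Benjamini-Hochberg). With the same total per library the F1 P4 values turned to -0.022, -0.0052, -0.033 and -0.021 for RMER19A, RMER19B, RMER19B2 and RMER19C, and all but RMER19B were also negative in the edgeR quasi-likelihood test. In F3 P6 the log2 fold changes lay between -0.04 and 0.02. In F3 P4 RMER19A, RMER19B, RMER19B2 and RMER19C gave -0.34, -0.36, -0.22 and -0.18 and in F3 P5 -0.25, -0.27, -0.46 and -0.07. The F3 P4 signs turned with the same total per library, where the values were 0.066, 0.048, 0.19 and 0.23, under median-ratio scaling and in the edgeR quasi-likelihood test. The F3 P5 signs turned without the libraries under 1700000 reads, to 0.12, 0.015, 0.020 and 0.062, and none of these values was called. The standard errors for RMER19A, 0.274 in F3 P4 and 0.470 in F3 P5 against 0.0352 in F1 P4, show how much wider the F3 germline spread was. No LTR species was called in any of the 6 comparisons. The difference of the TBT effect between P5 and P4 was 0.01 to 0.03 in F1 (FDR 0.997) and -0.24 to 0.11 in F3 (FDR 0.999), and was not called for any subtype.

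Among loci whose TBT and DMSO libraries did not overlap, RMER19 loci were few, as were all LTR loci tested. In F1 P4 there were 2 higher and 4 lower (background 0.236% and 0.151%), in F1 P5 9 and 6 (0.493% and 0.392%), in F1 P6 0 and 3 (0.0988% and 0.218%), in F3 P4 4 and 18 (0.141% and 1.76%), in F3 P5 2 and 2 (0.166% and 0.262%) and in F3 P6 16 and 11 (1.76% and 1.14%). None of those named here passed the FDR. In F1 P4 the RMER19B locus chr7:118763698-118764596, on a UTR exon of Vps35l, held 3.00, 5.34, 5.67, 6.40 and 6.45 CPM in DMSO and 7.25, 7.60 and 11.3 CPM in TBT as lowest, median and highest. Vps35l encodes a subunit of the retriever complex, which returns membrane proteins from endosomes to the cell surface. In F3 P4 the RMER19B locus chr13:112507397-112508163, on a UTR exon of Il6st, held 0, 0, 0.492 and 1.4 CPM in DMSO and 5.82, 7.46, 8.44, 14.3 and 63.0 CPM in TBT. Il6st encodes gp130, the shared signalling receptor of the interleukin-6 family. The value of 63.0 came from P4 TBT library 5, one of those under 1700000 reads.

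Further loci without overlap were as follows. In F3 P4 the RMER19B locus chr19:47933842-47934656, 3019 bases from Cfap58, was at 0 in all 4 DMSO libraries and held 2.35, 2.65, 6.99, 24.4 and 50.3 CPM in TBT. In F3 P5 the RMER19B locus chr6:87983425-87984189 on an exon of Gm5577 held 0.857, 32.1, 32.2 and 33.0 CPM in DMSO and 40.5, 40.5, 105, 110 and 166 CPM in TBT. The values of 0.857 and 166 CPM came from DMSO library 2 and TBT library 5, both under 1700000 reads. In F3 P6 the RMER19A locus chr1:192145056-192145791 on an exon of Gm10516 held 2.03, 2.23, 2.38 and 2.95 CPM in DMSO and 0.368, 0.620, 0.900, 1.03 and 1.36 CPM in TBT. In the same population an RMER19B locus in an intron of Sh3bgr held 0, 0.450, 0.496 and 0.595 CPM in DMSO and 0.620, 1.03, 1.24, 1.7 and 3.12 CPM in TBT, values that it shared with 5 other loci. In F1 P6 the RMER19B locus chr1:164806695-164807611, in Dpt, held 7.52 to 8.84 CPM in DMSO and 2.09 to 7.13 CPM in TBT. The direction was opposite in F3 P6, where it held 3.97 to 4.56 CPM in DMSO and 5.60 to 7.54 CPM in TBT, again without overlap. Dpt encodes dermatopontin, a protein of the extracellular matrix.

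The F1 P6 TBT libraries 7 and 8 differed from the other somatic libraries at RMER19 loci outside genes. Their sums outside genes were 1589 and 1694 CPM, against 131 to 342 CPM in the other 10 F1 P6 libraries, and reads were seen at 2884 and 3011 RMER19 loci against 1184 to 1722. Their summed germ cell markers were 48 and 41.1 CPM, where TBT libraries 11 and 9 held 43.2 and 42.5 CPM of these markers with RMER19 sums outside genes of 219 and 342 CPM. The part of germ cells in these sums was not tested. The sums outside genes over all 12 libraries gave log2 fold changes of TBT over DMSO of 1.63 for RMER19A, 1.19 for RMER19B, 0.79 for RMER19B2 and 1.51 for RMER19C, none called (FDR 0.272 to 0.287, limma with Benjamini-Hochberg). Without both libraries the sums outside genes gave 0.74 (SE 0.327), 0.36, 0.18 and 0.59 in the same order, with FDR from 0.835 to 0.864, and the sums over all loci of the subtypes gave 0.03, 0.06, 0.03 and 0.03. Again no locus was called.

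The MBD comparison asked whether methylated DNA at RMER19 loci in somatic cells differed with TBT. The deposited counts cover part of the genome in windows of 100 bases, of which 382 of 154773 in F1 and 397 of 164382 in F3 lay by at least 50 bases in an RMER19 locus. Capture in RMER19 windows was higher in windows with more CpG up to 3 per window, and the DMSO and TBT means lay close together. In F1 DMSO the mean was 5.37, 9.17, 13.9, 16.9 and 19.8 CPM for windows with 0, 1, 2, 3 and at least 4 CpG, against 4.25, 6.62, 9.90, 12.4 and 14.8 CPM in windows of other LTR loci. In F3 DMSO RMER19 windows gave 5.71, 9.63, 15.1, 25.4 and 21.7 CPM and other LTR windows 3.44, 6.32, 10.2, 13.9 and 17.1 CPM. RMER19 windows were the higher ones in each CpG class of both generations. The classes of 3 and of at least 4 CpG held 23 and 12 RMER19 windows in F1 and 23 and 10 in F3. The mean over all RMER19 windows was 8.83 ± 0.202 CPM in DMSO (SD, n = 3) and 8.75 ± 0.273 in TBT (n = 4) in F1, and 9.79 ± 0.099 (n = 5) and 9.79 ± 0.367 (n = 7) in F3.

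**Figure D5:**
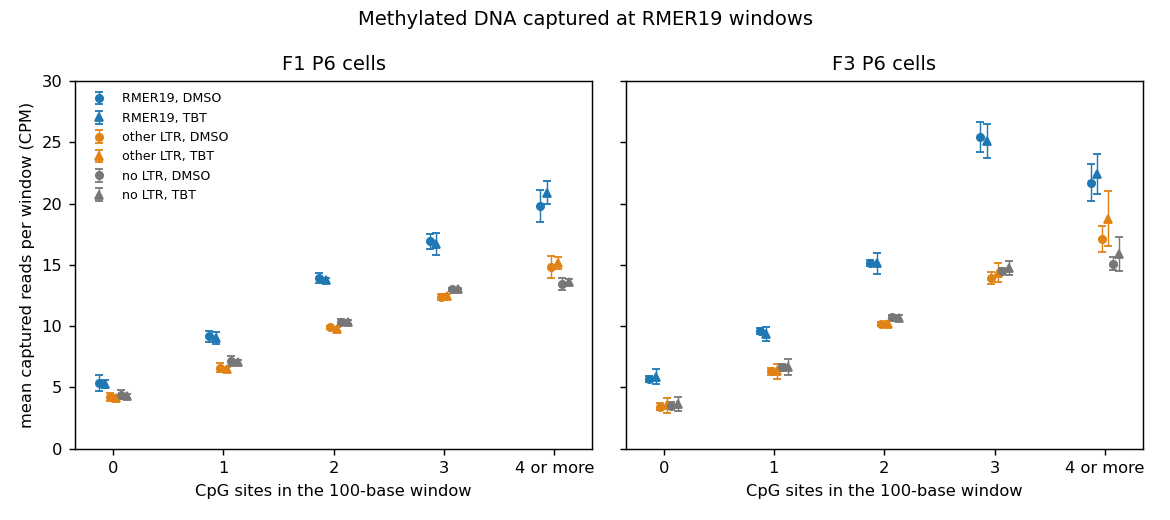
Mean MBD level in CPM per window of 100 bases by number of CpG in the window, in F1 (left) and F3 (right) P6 cells. Circles are DMSO and triangles TBT, colours mark RMER19, other LTR and non-LTR windows, and bars show the SD over libraries. RMER19 points lie above other LTR points in each CpG class, and DMSO and TBT points lie close together.

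Of the RMER19 windows, 127 of 34559 in F1 and 192 of 47563 in F3 were tested, and none was called (edgeR quasi-likelihood test, Benjamini-Hochberg). The background was 0.00579% gained and 0.0260% lost in F1 and none of either in F3. At an unadjusted p under 0.05 stood 4 and 6 RMER19 windows (3.15% and 3.12%), beside 5.05% and 5.16% of all windows tested, and the likelihood ratio test and DESeq2 also called none. The median log2 fold change was -0.05 in F1 and -0.03 in F3, beside 0.00 over all windows in both. Groups did not overlap at 2 gained and 2 lost RMER19 windows in F1 (background 3.44% and 3.33%) and at none in F3 (background 0.135% and 0.109%). The gained windows were chr13:52775401-52775500 in an RMER19B locus, with 17.6 to 23.2 CPM in DMSO (mean 20.8) and 24.1 to 30.1 CPM in TBT (mean 27.7), and chr2:77823901-77824000 in an RMER19A locus, each with 3 CpG. The lost windows were chr15:98338201-98338300 in an RMER19B locus, with means of 19.7 CPM in DMSO and 13.9 CPM in TBT, and chr13:29266101-29266200 in an RMER19B locus in an intron of Cdkal1.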

How the data were processed

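RNA of sorted P4, P5 and P6 cells and methylated DNA of P6 cells were measured in 81 libraries, grouped by the labels. The authors deposited RNA values as a signal per LTR locus, in CPM scaled by TMM in edgeR, from oligo(dT)-primed libraries trimmed with Trim Galore and aligned with STAR to GRCm38 (mm10), and counted with a modified ERVmap. For MBD, the authors deposited counts per window of 100 bases and, in the other column, the CpG number of each window, as made for QSEA. Tool versions of the authors are not given in the sources used here. The MBD tables used here hold part of the windows of the genome.

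The smallest value above 0 in a library is what 1 read is worth, 100% of values were whole multiples of it (tolerance 0.01), and 1 unit is its median over libraries. Loci whose mean reached 5 units, and species sums, were tested as log2(value + 1 unit) in limma 3.58.1 with a variance trend (R 4.3.3), over all LTR loci, and MBD counts with the edgeR 4.0.16 quasi-likelihood test (TMM, filterByExpr), both with Benjamini-Hochberg adjustment at 0.05. P5 was compared with P4 with exposure as a covariate. On this scale, fold changes of weakly read loci are too small. Place was taken from GENCODE vM21 with bedtools 2.31.1, sequences from GRCm38. Reads that map to several copies can be split between loci by the counting, and whether it used strand is not given in the sources used here.

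Named loci were those past the FDR (for TBT), the 3 highest and 3 lowest (for P5 against P4), or those of largest change without overlap, the 3 highest per kilobase in each table among loci of at least 200 bases, and for sequences the highest per subtype among loci outside genes, of at least 300 bases and not on chromosome 18. Members and lists were chosen with earlier results of these data known. The tests were tested on simulated data. Alternatives were other pseudocounts, filters, scalings and tools (DESeq2 1.42.0 for windows), a replicate block, loci outside genes, and leaving out each library. Loci inside genes, omission of F1 P6 TBT libraries 7 and 8 (over all loci and over loci outside genes) and omission of libraries under 1700000 reads were chosen after seeing the data. Counting error alone limits values of few reads.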

Additional observations from a re-analysis of the deposited data

Results flagged for a closer look

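In groups of 4 to 10 libraries, the highest or lowest library was compared with the rest by Dixon's test at the 95% level. Of 137 groups tested over the RMER19 sums and the named loci, 18 held a library that stood apart, and chance alone gives about 1 in 20. In 3 of the 18 all other libraries were at 0, where any value above 0 is marked, so these 3 carry no information about an outlying library, and 4 of the 137 held equal values. No cause was tested.

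Among the sums, the RMER19B total was 5130 CPM in F1 P5 DMSO library 43-5, against 5345 to 5383 CPM in the others, and 4594 CPM in F3 P6 TBT library 9, against 4545 to 4554 CPM. The RMER19A total was 514 CPM in F3 P5 TBT library 5, against 1748 to 2119 CPM, and this library had the fewest reads of all. The RMER19B2 total was 830.5 CPM in F3 P6 DMSO library 3, against 866 to 873 CPM. RMER19 signal outside genes was 1817 CPM in F1 P5 DMSO library 44-1, against 1448 to 1511 CPM, and 251 CPM in F1 P6 DMSO library 3, against 162 to 187 CPM.

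Among loci in F1 P4, RMER19A chr11:106094599 held 0.768 CPM in TBT library 47-5, against 3.09 to 4.25 CPM. RMER19B chr1:94202388 held 0.229 CPM in DMSO library 48-4 and 0.995 CPM in TBT library 45-5, where the other libraries of each group were at 0. RMER19B chr2:158239953 held 8.85 CPM in TBT library 47-4, against 0 to 3.20 CPM.

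In F1 P5, RMER19B chr11:93758619 held 39.1 CPM in DMSO library 44-1, against 15.2 to 17 CPM, and RMER19B chr1:152393337 held 48 CPM in TBT library 47-4, against 4.76 to 22.8 CPM. RMER19B chr2:158239953 held 1.41 CPM in TBT library 47-1, against 0 to 0.341 CPM. RMER19B2 chr8:59418031, the locus called in F1 P5, held 0.336 CPM in DMSO library 48-4, with the other DMSO libraries at 0.

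In F3, RMER19B chr13:112507397 held 63.0 CPM in P4 TBT library 5, against 5.82 to 14.3 CPM. In P5 DMSO library 2, RMER19A chr3:104153796 held 18 CPM, against 8.31 to 9.36 CPM, and RMER19B chr6:87983425 held 0.857 CPM, against 32.1 to 33.0 CPM. Both of these libraries held under 1700000 reads. RMER19C chr11:54472167 held 6.2 CPM in P6 DMSO library 3, against 3.35 to 3.38 CPM.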

How the results depend on the processing

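The rise of RMER19 sums outside genes in F1 P5 kept its direction and its call under every alternative tried, with each library left out and under both other scalings. Of the values for subtype sums under alternatives other than leaving out a library, 184 kept direction and side of the threshold and 72 changed sign, 58 of them called neither as reported nor under the alternative. In all, 24 passed the threshold only under the alternative, 10 of them with a change of sign, and 5 passed it only as reported. The cause was not tested. Of the counts of called loci and windows, 63 stayed within 1.5 times and 15 did not. The 4 F3 germline libraries under 1700000 reads also had summed germ cell markers of 142 to 2239 CPM, and the part of either in the F3 counts was not tested. This limit was set on reads and not on markers, so libraries with low marker sums can remain after the omission.

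The number of called RMER19 loci in F1 P5 TBT against DMSO, 1 as reported, was 0 with a pseudocount of 0.25 unit, 0 with a filter at a mean of 20 units, 0 in the edgeR quasi-likelihood test, 11 in the edgeR likelihood ratio test and 40 with no filter (0.572%, beside 0.202% of all LTR loci). The likelihood ratio test also called 1 in F1 P4 and for F3 1 in P4, 95 in P5 and 2 in P6, where none was reported. In F3 P5 against P4, 12 as reported, the count was 4 with no filter, 19 with the same total per library, 28 under median-ratio scaling, 136 in the quasi-likelihood test and 59 without the libraries under 1700000 reads. Replicate numbers are shared by P4 and P5. The correlation of the deviations of libraries with the same number ran from -0.00553 to 0.278 in F1 and from -0.0878 to 0.46 in F3, so not every pair passed 0.1 nor did every library correlate best with its own number, and the numbers were not used as pairs. With the number as a replicate block, 473 instead of 399 RMER19 loci were called in F1 and 37 instead of 12 in F3, the RMER19B2 sum in F1 P5 against P4 came to 0.074 and was called, and no other call on the subtype sums changed.

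With the same total in every library, F1 P4 TBT against DMSO gave -0.022 for RMER19A, -0.0052 for RMER19B, -0.033 for RMER19B2 and -0.021 for RMER19C, and F1 P5 against P4 gave 0.17 for RMER19A, 0.13 for RMER19B, 0.22 for RMER19B2 and 0.095 for RMER19C. F1 P5 against P4 inside genes gave 0.11 for RMER19A, 0.020 for RMER19B, 0.084 for RMER19B2 and -0.018 for RMER19C, and F3 P4 TBT against DMSO gave 0.066 for RMER19A, 0.048 for RMER19B, 0.19 for RMER19B2 and 0.23 for RMER19C. F3 P5 TBT against DMSO gave 0.065 for RMER19C, and F3 P5 against P4 gave 0.35 for RMER19A, 0.29 for RMER19B and 0.15 for RMER19C. F3 P5 against P4 inside genes gave 0.051 for RMER19A, 0.021 for RMER19B and 0.16 for RMER19B2. Under median-ratio scaling, F1 P5 against P4 gave 0.16 for RMER19A, 0.12 for RMER19B, 0.20 for RMER19B2 and 0.078 for RMER19C, and F1 P5 against P4 inside genes gave 0.10 for RMER19A, 0.0030 for RMER19B, 0.068 for RMER19B2 and -0.035 for RMER19C. F3 P4 TBT against DMSO gave 0.040 for RMER19A, 0.022 for RMER19B, 0.16 for RMER19B2 and 0.20 for RMER19C, and F3 P5 against P4 gave 0.56 for RMER19B, 0.70 for RMER19B2 and 0.41 for RMER19C. F3 P5 against P4 outside genes gave 1.14 for RMER19A, 1.06 for RMER19B2 and 0.81 for RMER19C, and F3 P5 against P4 inside genes gave 0.32 for RMER19A, 0.29 for RMER19B, 0.42 for RMER19B2 and 0.16 for RMER19C. F3 P6 TBT against DMSO gave -6.2e-06 for RMER19B2 and -0.0079 for RMER19C. Over loci outside genes, F1 P4 TBT against DMSO gave -0.011 for RMER19A and -0.056 for RMER19B2, and F1 P5 against P4 gave 0.48 for RMER19A, 0.81 for RMER19B, 0.49 for RMER19B2 and 0.42 for RMER19C. F3 P5 against P4 gave 0.87 for RMER19B and 0.22 for RMER19C, and the F3 difference of the TBT effect between P5 and P4 gave -0.076 for RMER19A, -0.25 for RMER19B and -0.027 for RMER19C. Over loci inside genes, an alternative added after the data were seen, F1 P5 against P4 gave -0.039 for RMER19A, -0.13 for RMER19B, -0.068 for RMER19B2 and -0.17 for RMER19C, and the F1 difference of the TBT effect between P5 and P4 gave -0.037 for RMER19A, -0.041 for RMER19B, -0.050 for RMER19B2 and -0.019 for RMER19C. F3 P5 TBT against DMSO gave 0.13 for RMER19C, and F3 P5 against P4 gave -0.27 for RMER19A and -0.17 for RMER19B2. In the edgeR quasi-likelihood test, F1 P4 TBT against DMSO gave -0.0056 for RMER19A, -0.018 for RMER19B2 and -0.0045 for RMER19C, and F3 P4 TBT against DMSO gave 0.051 for RMER19A, 0.043 for RMER19B, 0.24 for RMER19B2 and 0.30 for RMER19C. F3 P5 TBT against DMSO gave 0.13 for RMER19C. Over the tested loci, F1 P6 TBT against DMSO gave -0.034 for RMER19B2. Without the F3 libraries under 1700000 reads, also added after the data were seen, F3 P4 TBT against DMSO gave 0.016 for RMER19A, and F3 P5 TBT against DMSO gave 0.12 for RMER19A, 0.015 for RMER19B, 0.020 for RMER19B2 and 0.062 for RMER19C. F3 P5 against P4 gave 0.055 for RMER19B and 0.011 for RMER19C, and F3 P5 against P4 inside genes gave 0.051 for RMER19B2. The F3 difference of the TBT effect between P5 and P4 gave 0.22 for RMER19B2.

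When each library was left out in turn, the count of called loci ranged from 0 to 4 in F1 P5 TBT against DMSO, from 0 to 1 in F3 P6 TBT against DMSO and from 4 to 45 in F3 P5 against P4. The RMER19B sum outside genes in F3 P5 against P4 ranged from 0.76 to 1.01, and the RMER19B2 sum inside genes in F1 P5 against P4 from -0.078 to -0.055. F3 P5 TBT against DMSO ranged from -0.38 to 0.13 for RMER19A, from -0.44 to 0.072 for RMER19B and from -0.25 to 0.16 for RMER19C, and F3 P6 from -0.0043 to 0.039 for RMER19C. F3 P5 against P4 ranged from -0.090 to 0.21 for RMER19A and from -0.11 to 0.14 for RMER19B, and inside genes from -0.40 to 0.11 for RMER19A and from -0.29 to 0.21 for RMER19B2. The difference of the TBT effect between P5 and P4 ranged in F1 from -0.012 to 0.041 for RMER19B and from -0.0086 to 0.050 for RMER19C. In F3 it ranged from -0.13 to 0.47 for RMER19A, from -0.075 to 0.43 for RMER19B, from -0.45 to 0.18 for RMER19B2 and from -0.073 to 0.34 for RMER19C.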
